A study of Mus musculus with 4 samples.

Results

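Acetaminophen (APAP) becomes toxic to hepatocytes once cytochrome P450 enzymes oxidise it, and the genes described here are 9 P450 genes linked to this oxidation or to P450 function in mouse liver (Cyp2e1, Cyp1a2, Cyp3a11, Cyp3a13, Cyp3a25, Cyp2a5, Cyp2a12, Cyp2b10 and Cyp2f2) together with Por, the reductase that supplies P450 enzymes with electrons. They were chosen by name, with no measured value in the rule but with earlier results of these data known. All 10 were found among the 27027 entries of the count table. In the study, male C57BL/6J mice (strain C57BL/6 in the labels), aged 9 to 12 weeks and fasted for 10 h overnight, received APAP at 300 mg/kg or 0.9% NaCl solution by intraperitoneal injection. Liver was taken at 24 h or 48 h, when the study looks at early resolution of the injury. Hepatic RNA was pooled in equal shares per group, from 6 mice for the vehicle-treated control at 24 h, 6 for the control at 48 h, 7 for APAP at 24 h and 7 for APAP at 48 h, and each pool gave 1 library of massive analysis of cDNA ends (MACE), a method that reads the 3′ ends of polyadenylated mRNA. Since each group is 1 pool, the spread between mice is unknown and nothing could be tested within a time, so that p-values come only from a fit of APAP against control over both times.

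The libraries held 4859661 and 5191990 reads on genes in the vehicle pools and 5698778 and 4938164 after APAP, at 24 h and 48 h. The vehicle-treated controls are called vehicle pools, and paired values are given in the order 24 h and 48 h throughout. Normalised reads are the counts over DESeq2 size factors of 0.880 to 1.17. Folds are ratios of normalised reads, each with a 95% exact (Clopper-Pearson) interval that covers counting error only. Genes were called higher or lower from 2-fold on (1 on the log2 scale). The background is the 12113 genes whose mean over the 4 libraries reached 10 normalised reads, all 10 members among them. Scaling to library totals in place of size factors adds 0.19 to every log2 fold of APAP against control at 24 h and 0.27 at 48 h. The 9 pan-hepatocyte genes found, albumin (Alb) and other secreted plasma proteins, took 98827 to 115086 RPM (reads scaled to the library total) in each library, and none of them differed 2-fold between APAP and control, although Ttr, coding for transthyretin, was 2.04-fold higher at 48 h than at 24 h after APAP.

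Cytochromes P450 are heme enzymes of the endoplasmic reticulum that insert oxygen into drugs, steroids and fatty acids. CYP2E1, CYP1A2 and CYP3A enzymes turn part of an APAP dose into N-acetyl-p-benzoquinone imine (NAPQI), which is bound by glutathione and, once glutathione is used up, binds to proteins. In the liver lobule Cyp2e1 and Cyp1a2 are typical of the pericentral zone, where APAP injury lies, whereas Cyp2f2 is a marker of the periportal zone.

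The stretches before the start sites of the members that changed most are shown so that the genes that moved in the same direction, and Cyp3a13, which moved the other way, can be compared. They are the 250 bases before the annotated start in RefSeq (GRCm38.p6), written 5′ to 3′ on the strand of the gene. By the gene starts of GENCODE M21, the last 80 bases of the window of Cyp2e1, 48 of Cyp1a2, 110 of Cyp3a11 and 46 of Cyp2f2 lie inside the gene, as does the whole Por window, so that distances to the start hold for RefSeq. Capitals mark letters that a search on both strands matched to a TATA box (TATAAA), the half-site of nuclear receptors (AGGTCA), a C/EBP motif (TTGCNNAA), a half-site of HNF1 (GTTAAT) or the core of the dioxin response element (GCGTG).
Cyp2e1, chr7:140763569-140763818, plus strand: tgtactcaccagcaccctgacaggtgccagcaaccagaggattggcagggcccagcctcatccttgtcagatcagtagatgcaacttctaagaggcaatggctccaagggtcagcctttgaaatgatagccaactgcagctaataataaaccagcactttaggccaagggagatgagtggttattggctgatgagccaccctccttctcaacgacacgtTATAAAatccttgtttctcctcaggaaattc
Cyp1a2, chr9:57683656-57683905, minus strand: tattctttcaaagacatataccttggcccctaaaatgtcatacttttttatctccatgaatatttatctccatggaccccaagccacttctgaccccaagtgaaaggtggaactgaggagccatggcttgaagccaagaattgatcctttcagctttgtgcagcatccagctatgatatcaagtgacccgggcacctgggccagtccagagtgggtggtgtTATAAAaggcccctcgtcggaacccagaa
Cyp3a11, chr5:145879855-145880104, minus strand: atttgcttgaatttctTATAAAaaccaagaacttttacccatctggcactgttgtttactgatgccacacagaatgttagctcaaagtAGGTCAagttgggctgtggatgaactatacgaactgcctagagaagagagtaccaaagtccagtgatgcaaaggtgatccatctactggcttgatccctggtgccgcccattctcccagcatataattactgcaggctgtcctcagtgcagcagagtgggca
Cyp3a13, chr5:137921620-137921869, minus strand: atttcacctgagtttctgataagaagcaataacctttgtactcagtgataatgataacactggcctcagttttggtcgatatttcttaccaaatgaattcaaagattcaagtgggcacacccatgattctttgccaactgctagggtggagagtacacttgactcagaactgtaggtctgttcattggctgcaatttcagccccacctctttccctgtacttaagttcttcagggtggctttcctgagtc
Cyp2f2, chr7:27119705-27119954, plus strand: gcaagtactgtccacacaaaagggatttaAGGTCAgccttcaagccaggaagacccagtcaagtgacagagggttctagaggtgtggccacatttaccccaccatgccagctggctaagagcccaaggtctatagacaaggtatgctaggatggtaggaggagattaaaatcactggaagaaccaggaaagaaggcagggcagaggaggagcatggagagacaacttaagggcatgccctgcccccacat
TATAAA was found in 5 of the 10 members (Cyp2e1, Cyp1a2, Cyp3a11, Cyp2a5 and Cyp2a12) and in 13.0% of 27025 promoters of the same length. In Cyp2e1 and Cyp1a2 it began 31 and 29 bases before the start, and in Cyp3a11 it lay 234 bases before it. AGGTCA was found in 3 members (Cyp3a11, Cyp3a25 and Cyp2f2) and in 13.8% of all promoters, and TTGCNNAA in 3 (Cyp3a25, Cyp2a5 and Cyp2b10) against 9.55%. GCGTG was found in 2 members (Cyp2b10 and Por) against 28.2%, and GTTAAT in 1 (Cyp2a5) against 6.52%. No match overlapped another, and the Cyp3a13 window held none of the 5 motifs. These matches describe letters and were not tested for binding.

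Cyp2e1, the ethanol-inducible P450 most closely tied to NAPQI formation, had the most reads of the 9 P450 genes in every library. It lies on the plus strand at chr7:140763739-140774987 (GRCm38, GENCODE M21), and its transcript has 9 exons and 242 bases of 3′ UTR at the end that MACE reads. It was counted with 6910 reads in the vehicle pool at 24 h, 7614 in the vehicle pool at 48 h and 5742 and 3213 reads after APAP, or 7856, 8164, 4891 and 3013 normalised reads. Both APAP pools lay below both vehicle pools, and the APAP pool at 48 h was the lowest. Against the control of the same time, Cyp2e1 was 1.61-fold lower (95% interval 1.55 to 1.66) at 24 h, short of 2-fold, and 2.71-fold lower (2.60 to 2.82) at 48 h. In bulk tissue, fewer cells of a type and less RNA per cell cannot be told apart, and this holds for every gene here.

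Cyp1a2, the aryl hydrocarbon-inducible P450 that also oxidises caffeine, was reduced more at 24 h than at 48 h. On chr9:57676937-57683703 (minus strand), it had 2681 and 3122 reads in the vehicle pools and 793 and 1131 reads after APAP. It fell 4.51-fold (4.17 to 4.89) at 24 h and 3.16-fold (2.95 to 3.38) at 48 h. The APAP pools thus held less than either vehicle pool, and the pool at 48 h stood above the pool at 24 h, by 1.57-fold (1.43 to 1.72). Cyp1a2 and Cyp2e1 therefore ran in opposite directions between 24 h and 48 h after APAP, where Cyp2e1 was 1.62-fold lower (1.55 to 1.70) at 48 h.

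The Cyp3a genes, which code for the main steroid- and drug-oxidising P450 enzymes, split. Cyp3a11, on chr5:145854426-145879964 (minus strand), is the major hepatic member in male mice and a target of the pregnane X receptor. It had 2215 and 1924 reads in the vehicle pools and 544 and 188 reads after APAP. It showed the strongest fall of the 10 genes, 5.43-fold (4.95 to 5.98) at 24 h and 11.7-fold (10.1 to 13.7) at 48 h, and the APAP pool at 48 h was 2.63-fold below that at 24 h (2.22 to 3.12).
Cyp3a13, on chr5:137892932-137921619 (minus strand), moved the other way. It had 425 and 480 reads in the vehicle pools and 1065 and 1124 after APAP, so that both APAP pools lay above both vehicle pools. Its fold of 1.88 (1.68 to 2.11) at 24 h was short of 2-fold, and that of 2.05 (1.84 to 2.28) at 48 h was just above it with an interval that reaches below. Scaled to library totals, its log2 fold was 1.10 in place of 0.91 at 24 h, and so past 2-fold at both times.
Cyp3a25, on chr5:145977194-146009618 (minus strand), a neighbour of Cyp3a11, differed little. With 490 and 529 reads in the vehicle pools and 522 and 456 after APAP, it was 1.25-fold lower (1.11 to 1.42) at 24 h and 1.33-fold lower (1.17 to 1.51) at 48 h.

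Cyp2f2, on chr7:27119909-27133660 (plus strand), codes for the P450 known for oxidising naphthalene and had the second highest number of reads in both vehicle pools. It had 4882 and 5686 reads there and 2894 and 1620 reads after APAP. It fell 2.25-fold (2.15 to 2.36) at 24 h and 4.01-fold (3.80 to 4.24) at 48 h, so that the periportal marker of the 10 genes was at a smaller share of its control than Cyp2e1 at both times. Scaled to library totals, its log2 fold at 24 h was -0.98 in place of -1.17, just short of 2-fold.
The neighbouring Cyp2a genes, which code for coumarin- and steroid-oxidising enzymes, were closer to control. Cyp2a5, on chr7:26835305-26843548 (plus strand), had 659 and 766 reads in the vehicle pools and 520 and 808 reads after APAP. The APAP pool at 24 h was the lowest, 1.69-fold below control (1.51 to 1.90), and at 48 h the interval of the fold, 0.922-fold (0.835 to 1.02), included 1.
Cyp2a12, on chr7:27029081-27037375 (plus strand), was the member nearest to control. It had 1913 and 1786 reads in the vehicle pools and 2518 and 1892 after APAP, a fold of 0.986 (0.929 to 1.05) at 24 h and 0.926 (0.868 to 0.989) at 48 h. With scaling to library totals the direction of Cyp2a12 at both times and of Cyp2a5 at 48 h turned, and with TMM factors that of Cyp2a12 at 24 h.
Cyp2b10, on chr7:25897620-25926624 (plus strand), the phenobarbital-inducible P450 that responds to the constitutive androstane receptor, had few reads. There were 25 and 55 reads in the vehicle pools and 26 and 30 after APAP. The fold was 0.779 (0.432 to 1.41) at 24 h and 2.10-fold lower (1.32 to 3.39) at 48 h, but the vehicle pools themselves differed 2.07-fold (1.27 to 3.47), and against the vehicle pool at 24 h the APAP pool at 48 h had a log2 fold of -0.01. Scaled to library totals it was -0.80 at 48 h, short of 2-fold.

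Por, on chr5:135670033-135735326 (plus strand), codes for the NADPH-dependent reductase without which microsomal P450 enzymes do not turn over. It had 549 and 773 reads in the vehicle pools and 1179 and 1202 after APAP. Both APAP pools lay above both vehicle pools, with folds of 1.61 (1.45 to 1.78) and 1.36 (1.24 to 1.49) against the same time, short of 2-fold, and the vehicle pools differed from each other by 1.33-fold (1.19 to 1.48). Por overlaps Gm16061 and Gm43091, Cyp2f2 overlaps Gm15883, all on the opposite strand, and Cyp3a13 overlaps Gm15502 on its own strand. None of these 4 genes reaches the last exon of the member.

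**Figure D1:**
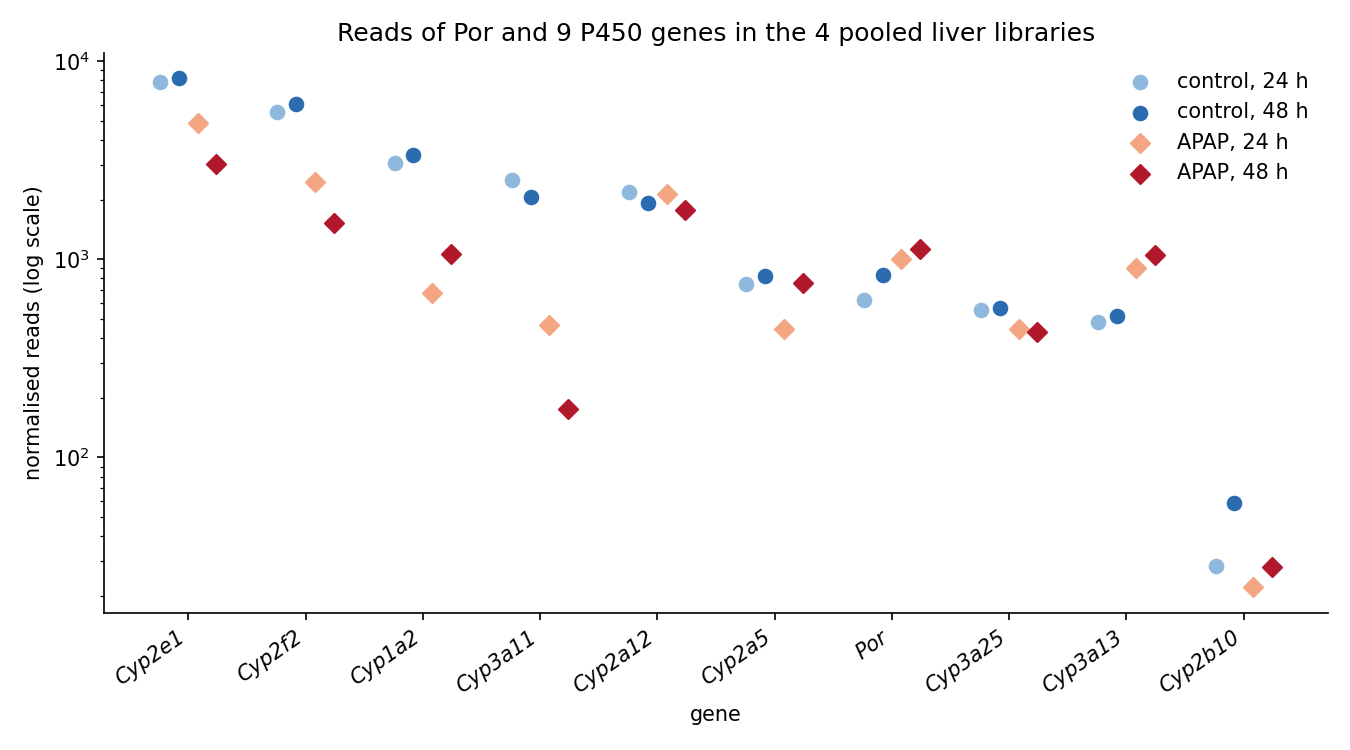
Normalised reads (log scale) of Por and the 9 P450 genes, ordered by their level in the vehicle pool at 24 h, with 1 point per pooled library. The vehicle pools (circles) lie farthest apart for Cyp2b10. The APAP pools (diamonds) lie clearly below them for Cyp2e1, Cyp2f2, Cyp1a2 and Cyp3a11 and clearly above them for Cyp3a13. For Por the APAP pools (1004 and 1127) also lie above, but the vehicle pools (624 and 829) are themselves apart.

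At 24 h, 3 of the 10 members (Cyp3a11, Cyp1a2 and Cyp2f2) were at least 2-fold lower after APAP, where 5.68% of all genes tested were, and 0 were at least 2-fold higher, where 5.85% were. At 48 h, 5 members (Cyp3a11, Cyp2f2, Cyp1a2, Cyp2e1 and Cyp2b10) were lower against 5.61% of all genes, and 1 (Cyp3a13) was higher against 5.76%. The median log2 fold of the members was -0.52 at 24 h and -0.74 at 48 h, beside 0.01 and -0.02 over all genes tested. Both APAP pools lay below both vehicle pools for 6 members (Cyp2e1, Cyp1a2, Cyp3a11, Cyp3a25, Cyp2b10 and Cyp2f2) and for 26.3% of all genes. For Cyp2b10 the gap was only that between 28.1 and 28.4 normalised reads. Each of 4 other scalings left 5 members, but the share of all genes was not computed under those scalings. Both APAP pools lay above both vehicle pools for 2 members (Cyp3a13 and Por) and for 24.8% of all genes.
The 4 pools were also fitted together by the quasi-likelihood test of edgeR, with time as a term, which left 1 residual degree of freedom and counts a fold that differs between the times as spread. At a Benjamini-Hochberg adjusted p of 0.05 over all 12113 genes, 4 members were lower after APAP, beside 6.86% of all genes. They were Cyp3a11 (log2 fold -2.97, adjusted p = 1.05e-07), Cyp1a2 (-1.91, adjusted p = 1.37e-06), Cyp2f2 (-1.59, adjusted p = 4.7e-05) and Cyp2e1 (-1.06, adjusted p = 0.00187), each lower in 2 of 2 APAP pools. Cyp3a13 (0.97, adjusted p = 0.000577) and Por (0.56, adjusted p = 0.0349) were higher in this edgeR fit, beside 3.68% of all genes. Cyp2b10, Cyp2a5, Cyp3a25 and Cyp2a12 did not pass (adjusted p of 0.153 to 0.872 in the edgeR fit). Por did not pass with time left out (adjusted p = 0.125 in edgeR) or with DESeq2 (adjusted p = 0.363). Leaving out 1 vehicle pool as well as time left a lone vehicle pool. Fewer of all genes then passed than when only time was left out. Cyp2e1 (log2 fold -1.05 and -0.99) and Cyp3a13 (0.93 and 1.02) did not pass without the vehicle pool at 24 h or 48 h. Nor did Cyp2f2 (-1.48) without the vehicle pool at 48 h. The p-values of these fits rest on the spread between pools and not between mice. With so few pools, edgeR and DESeq2 estimate this spread with information shared across genes. It is therefore not measured for each member alone.

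**Figure D2:**
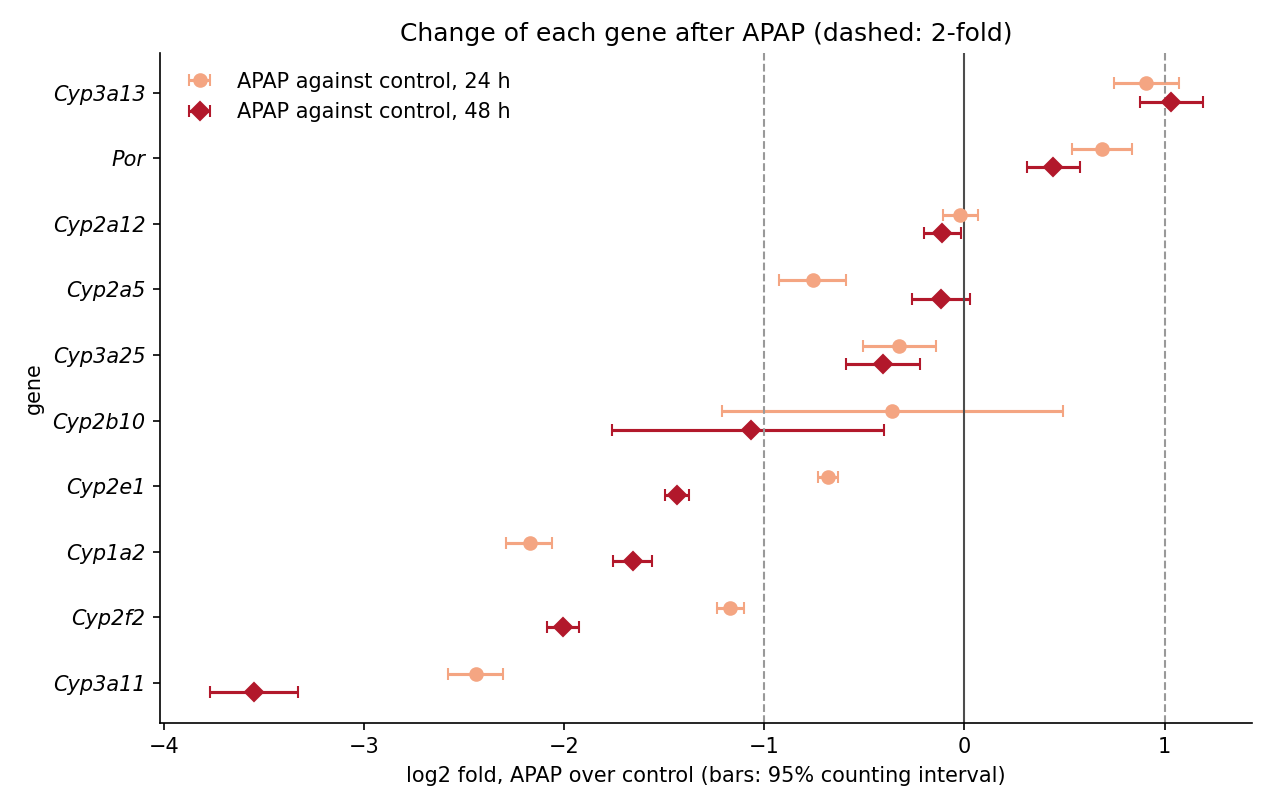
Log2 fold of APAP over control for each gene at 24 h (circles) and 48 h (diamonds), with bars for the 95% counting interval and dashed lines at 2-fold. Cyp3a11 is farthest to the left at both times, Cyp1a2 lies nearer to control at 48 h than at 24 h, and the bars of Cyp2b10 are the widest.

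The times were compared within each treatment, in pools of different mice that also enter the folds above. After APAP, 1 member (Cyp3a11) was at least 2-fold lower at 48 h than at 24 h, where 2.86% of all genes were, and 0 were higher, where 2.82% were. In the vehicle pools, 0 members were lower at 48 h, against 2.34% of genes, and 1 (Cyp2b10, at 25 and 55 reads) was higher, against 2.86%. The other 9 members differed between the vehicle pools by log2 folds of -0.29 (Cyp3a11) to 0.41 (Por). The fold of Cyp3a11 at 48 h was 0.464 times that at 24 h (exact conditional interval 0.387 to 0.556). The corresponding ratio was 0.593 (0.561 to 0.626) for Cyp2e1 and 0.561 (0.522 to 0.603) for Cyp2f2, whose folds also moved away from control. It was 1.43 (1.29 to 1.59) for Cyp1a2 and 1.56 (1.34 to 1.82) for Cyp2a5, whose folds moved back toward control, and for Cyp3a13, Cyp3a25, Cyp2a12 and Cyp2b10 the interval included 1. For Por it was 0.845 (0.736 to 0.970).

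**Figure D3:**
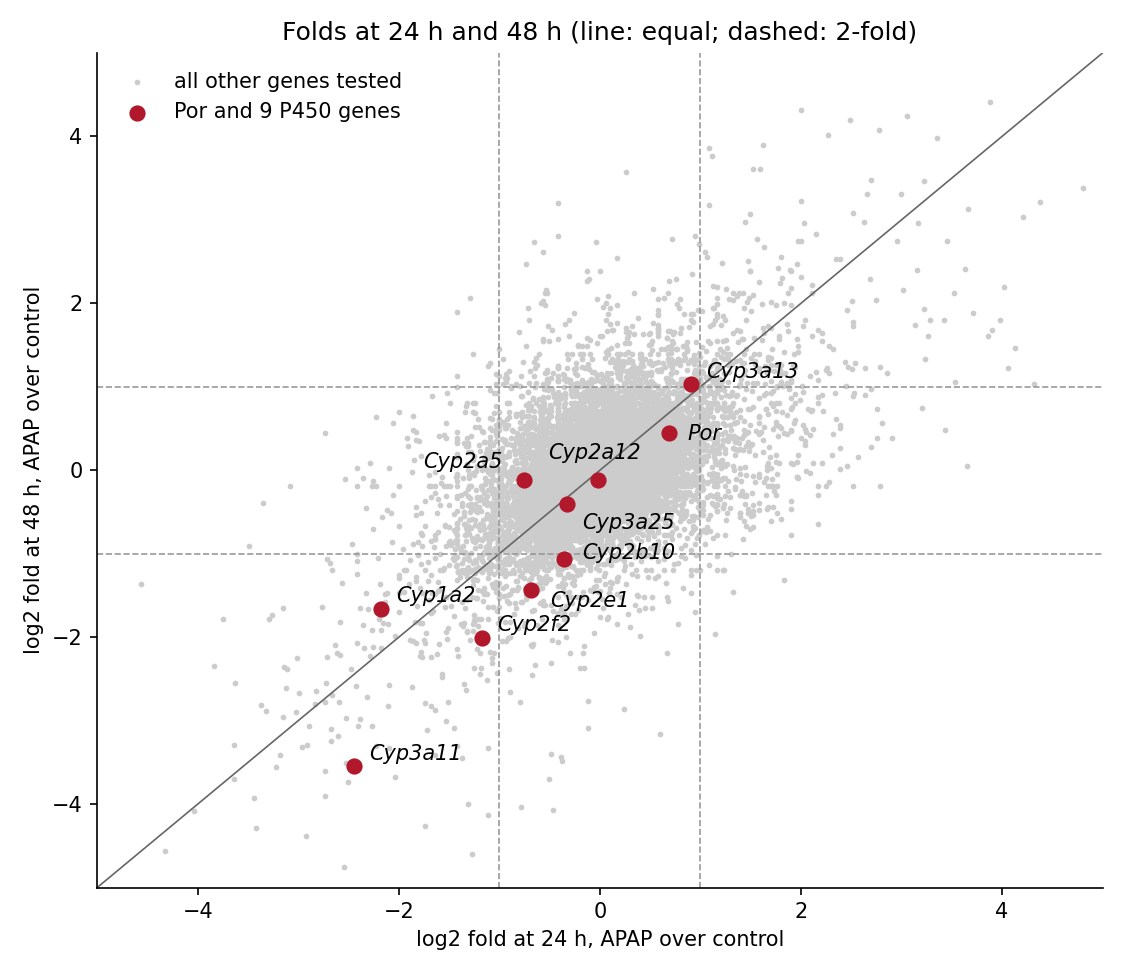
Log2 fold at 48 h against log2 fold at 24 h, with all genes tested in grey, the 10 members in red, the line of equal folds and dashed lines at 2-fold. Axes end at 5 in either direction, which leaves out 5 genes. Cyp3a11, Cyp2f2 and Cyp2e1 lie below the line and Cyp1a2 and Cyp2a5 above it.

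The 9 P450 genes together held 20200 and 21962 reads in the vehicle pools and 14624 and 10462 after APAP, 0.416% and 0.423% of the library against 0.257% and 0.212%. Their summed normalised reads were 1.84-fold lower (1.80 to 1.88) at 24 h and 2.40-fold lower (2.35 to 2.46) at 48 h. Reads of the P450 genes per read of Por were 36.8 and 28.4 in the vehicle pools and 12.4 and 8.70 after APAP, a measure within the library that scaling does not touch. It was lower in both APAP pools than in either vehicle pool.
The make-up of these reads shifted as well. Shares are of reads, which MACE draws from 1 end of each transcript, and were not divided by length. Cyp2e1 made up 34.2% and 34.7% of them in the vehicle pools, 39.3% 24 h after APAP and 30.7% 48 h after APAP. The share of Cyp3a11 was 11.0% (exact binomial interval 10.5 to 11.4) and 8.76% (8.39 to 9.14) in the vehicle pools, and 3.72% (3.42 to 4.04) and 1.80% (1.55 to 2.07) after APAP. That of Cyp3a13 was 2.10% and 2.19% in the vehicle pools and 7.28% and 10.7% after APAP, so that Cyp3a13 had fewer reads than Cyp3a11 in both vehicle pools and more in both APAP pools. Cyp2a12 made up 9.47% and 8.13% in the vehicle pools and 17.2% and 18.1% after APAP.

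**Figure D4:**
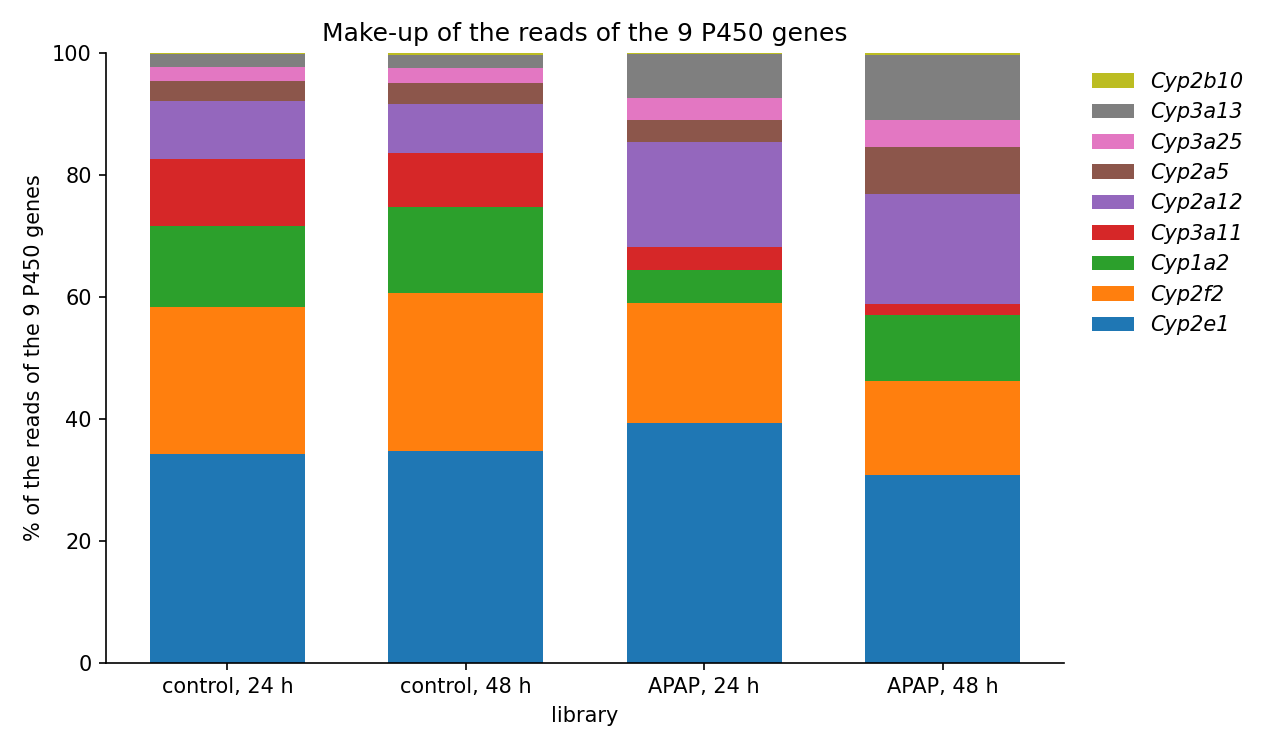
Share of each gene in the reads of the 9 P450 genes, as % per library, with segments stacked from Cyp2e1 at the bottom to Cyp2b10 at the top. The segments of Cyp3a11 and Cyp2f2 are smaller and those of Cyp2a12 and Cyp3a13 larger in both APAP pools than in the vehicle pools.

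Within a library, reads were also set against those of Cyp2f2. Reads of Cyp2e1 per read of Cyp2f2 were 1.42 and 1.34 in the vehicle pools and 1.98 and 1.98 after APAP, so that Cyp2f2 was reduced more than Cyp2e1, by 1.40-fold (1.32 to 1.49) at 24 h and 1.48-fold (1.38 to 1.59) at 48 h. For Cyp1a2 the ratio was 0.549 and 0.549 in the vehicle pools, and 0.274 and 0.698 after APAP, in the order 24 h and 48 h. Cyp1a2 was therefore reduced more than Cyp2f2 at 24 h and less at 48 h. Cyp3a11 was the 1 member below its control ratio at both times, with 0.454 and 0.338 in the vehicle pools and 0.188 and 0.116 after APAP.

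Reads of a 3′ method can be shared where transcripts end alike. The last 300 bases of each member's transcript were compared with all GENCODE M21 transcripts (at least 95% identity over at least 100 bases), and 8 members matched no other gene. Cyp3a11 matched Cyp3a41a, Cyp3a41b and Cyp3a63-ps over 119 bases, but these had at most 3 reads in any library. The end of Cyp2e1 matched 65 genes, 52 of them in the count table. Of the 38 that passed the filter, 2 were at least 2-fold lower at 24 h, and 3 were lower and 1 higher at 48 h. The median log2 fold of the 38 was 0.18 and 0.09. Fcho2, the gene with the most reads among the 38, was 1 of the 3 lower at 48 h. Not all of the 52 genes end like Cyp2e1. Some matches lay on the opposite strand, as for Eapp, or far from the end of the other transcript, as for Wdr12 (4850 bases). Cyp2e1 held 3213 to 7614 reads per library and the 52 genes together 3275 to 4316, a total that includes such matches. The count of Cyp2e1 is uncertain to the extent that reads were exchanged, which was not tested.

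The genes whose pattern over the 4 libraries was nearest to that of Cyp2e1, by Euclidean distance of centred log2 normalised reads among 4397 other genes whose mean reached 100, included 4931406C07Rik (distance 0.14), Fcho2 (0.15), Msmo1 (0.15) and Thnsl2 (0.19). Fcho2, an endocytosis gene, had 926 and 1044 reads in the vehicle pools and 849 and 486 after APAP, and it is also the gene whose transcript end shares 177 bases with the end of Cyp2e1 at 98.3% identity. Whether reads were exchanged between both genes was not tested.
Nearest to Cyp2f2 were Aldh1a7 (0.15), Hmgcs1 (0.16), Gulo (0.17), Idi1 (0.19) and Paqr9 (0.21). Hmgcs1 and Idi1 code for enzymes of sterol synthesis, as does Msmo1. Gulo, which codes for the last enzyme of vitamin C synthesis, is also on the list of pericentral markers below. In that order Cyp2e1 came 42nd for Cyp2f2, and Cyp2f2 came 128th for Cyp2e1, at a distance of 0.53.

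Among 53 other P450 genes that passed the filter, of 96 entries, 18 were at least 2-fold lower and 1 higher at 24 h, and 19 were lower and 2 higher at 48 h. Their median log2 fold was -0.70 at both times, and with library totals -0.52 and -0.43. Lower at both were 12 genes, namely Cyp26a1, which clears retinoic acid and had 20 and 64 reads in the vehicle pools and 4 and 6 after APAP, the bile acid enzymes Cyp8b1 and Cyp7a1, the fatty acid hydroxylases Cyp4a12a, Cyp4a12b and Cyp4f14, and Cyp2c29, Cyp2c37, Cyp2c38, Cyp2c50, Cyp2c54 and Cyp2c67. Cyp8b1 had 2717 and 2122 reads in the vehicle pools and 412 and 475 after APAP. Cyp7a1 was only just past 2-fold at 48 h (-1.07), and short of it with library totals (-0.80) or against the vehicle pool at 24 h (-0.81). Cyp2c29 had 5312 and 4279 reads there and 1139 and 1143 after APAP, log2 folds of -2.64 and -2.10 that exceed those of Cyp2e1.
Another 6 genes (Cyp2c44, Cyp2c40, Cyp2c69, Cyp2j5, Cyp2u1 and Cyp2a4) were past 2-fold at 24 h and not at 48 h, and 7 (Cyp7b1, Cyp27a1, Cyp51, Cyp2c70, Cyp2b13, Cyp2r1 and Cyp2j6) at 48 h and not at 24 h, a split by the threshold and not a tested difference, since Cyp2c44 had log2 folds of -1.01 and -0.99. Cyp21a1, with 2 to 32 reads, was higher at both times. Cyp4a14 was higher at 48 h (log2 fold 1.02), but against the vehicle pool at 24 h the direction turned (-1.83). The Cyp2d genes with the most reads stayed under 2-fold, among them Cyp2d9 with 6319 and 6622 reads in the vehicle pools and 6586 and 5027 after APAP.

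Of 7 electron transfer partners of P450 enzymes, 2 were at least 2-fold lower at 24 h and 4 at 48 h, none was higher, and the median log2 fold was -0.51 and -1.02. Scaled to library totals, 0 and 1 of them were past 2-fold and the median was -0.33 and -0.75. Against the vehicle pool of the other time, 1 was lower at 24 h and 1 at 48 h. Cyb5r3, the reductase of cytochrome b5, had 2014 and 3723 reads in the vehicle pools and 1242 and 1370 after APAP (log2 folds -1.11 and -1.64). Cyb5b, the cytochrome b5 of the outer mitochondrial membrane, had log2 folds of -1.16 and -1.17, whereas the microsomal Cyb5a had -0.20 and -0.14. Fdx1 (-1.02) and Fdxr (-1.05), the electron donors of mitochondrial P450 enzymes, were lower at 48 h, but not with library totals (-0.75 and -0.78) or against the vehicle pool at 24 h (-0.50 and -0.20), since the vehicle pools had 392 and 596 reads of Fdx1 and 34 and 65 of Fdxr.
Of 12 genes of heme synthesis and breakdown, Hmox1, the inducible heme oxygenase, was the 1 gene past 2-fold, higher by log2 folds of 1.16 and 1.22. Against the vehicle pool at 24 h, Hmox1 at 48 h was just short of 2-fold (0.95). Alas1, the first enzyme of heme synthesis, had 444 and 467 reads in the vehicle pools and 833 and 460 after APAP (0.49 and -0.22).
Of 16 regulators, Dbp (-2.26), a clock output factor, and Onecut1 (-1.29) were at least 2-fold lower and Cebpb (1.04) and Foxa3 (1.08) at least 2-fold higher at 24 h, and none was past 2-fold at 48 h. This contrast rests on the threshold, since at 48 h Onecut1, with 89 reads in the vehicle pool and 51 after APAP, was just short of it, Foxa3 had 1.06 with library totals, and against the vehicle pool at 24 h Foxa3 had 1.04 and Dbp -1.66. The receptors of P450 induction were not past it at either time. Nr1i2, the pregnane X receptor, had 108 and 119 reads in the vehicle pools and 145 and 136 after APAP. Nr1i3, the constitutive androstane receptor, had log2 folds of 0.72 and -0.04, and Ahr 0.22 and -0.36.

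The genes listed for conjugation of APAP or detoxification of NAPQI did not move as 1 group. Of those listed for conjugation, Ugt1a1 and Ugt1a6a were not found under these symbols. Ugt1a9, with at most 1 read in a library, did not pass the filter. Of 13 conjugation genes that passed the filter, 3 were at least 2-fold lower at 24 h and 4 at 48 h (Sult2a8, Ugt2b1, Papss2 and, at 48 h, Sult1b1), and none was higher. With library totals Sult1b1 (-0.85) was short of 2-fold at 48 h and Sult1d1, a sulfotransferase of dopamine, was higher (1.13). Ugt2b1, a glucuronosyltransferase, had log2 folds of -1.57 and -2.48, and Papss2, which makes the sulfate donor, -1.73 and -1.94. Sult1a1, the phenol sulfotransferase, had 0.14 and -0.48. The median of the list was -0.40 at both times.
Of 12 genes that detoxify NAPQI, Gsta3 (-1.64) was at least 2-fold lower at 24 h, Gstt1 (-1.43) and Mgst1 (-1.18) were lower at 48 h, and Gss and Slc7a11 were higher at both. The vehicle pools differed in Gstt1 (857 and 1497 reads). Against the vehicle pool of the other time, Gstt1 had log2 folds of -1.54 at 24 h and -0.71 at 48 h. Gss, the second enzyme of glutathione synthesis, had 96 and 98 reads in the vehicle pools and 394 and 365 after APAP (1.62 and 1.70). Slc7a11, the cystine transporter, had 2 and 3 reads in the vehicle pools, the floor of 3 reads used for folds, and 16 and 23 after APAP. The median of these 12 genes was 0.12 and -0.03 on the log2 scale, and turned to 0.23 at 48 h with library totals, which also left Mgst1 (-0.91) short of 2-fold.

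Pericentral markers were lower in the same APAP pools. Of 17 pericentral markers that passed the filter, no member among them, 13 were at least 2-fold lower at 24 h and 13 at 48 h, 12 of them at both, and none was higher. Their median log2 fold was -1.48 and -1.29, and their summed level was 3748 to 3964 RPM in the vehicle pools and 1327 to 1359 RPM after APAP. Cyp2c29 and Cyp7a1, lower at both times but Cyp7a1 only narrowly at 48 h, are on this list and also among the other P450 genes above. Glul, glutamine synthetase of the cells next to the central vein, had 3046 and 3324 reads in the vehicle pools and 436 and 323 after APAP (-3.22 and -3.56), and no marker of the list was at 0 in any library. Glul thus showed a greater fall than Cyp2e1 or Cyp1a2, and Cyp3a11 a similar one at 48 h.
Of 18 periportal markers, 6 were at least 2-fold lower and 1 (Pck1) higher at 24 h, and 2 (G6pc and Fbp1) were lower and Pck1 higher at 48 h. Their median log2 fold was -0.27 and -0.05, and their summed level was 11847 and 13196 RPM in the vehicle pools and 8733 and 13013 RPM after APAP. Among those lower at 24 h were G6pc, Fbp1, Ass1, Gls2 and Etnppl. The urea cycle genes of the list had log2 folds at 24 h of -1.06 (Ass1), -0.72 (Asl), -0.32 (Cps1) and 0.08 (Arg1). At 48 h, Cyp2f2 (-2.00) lay below all 18. Scaled to library totals, 12 and 10 pericentral markers and 3 and 1 periportal markers were lower, and the periportal median at 48 h turned to 0.21. The part of these zonal differences in the results for the members was not tested.

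**Figure D5:**
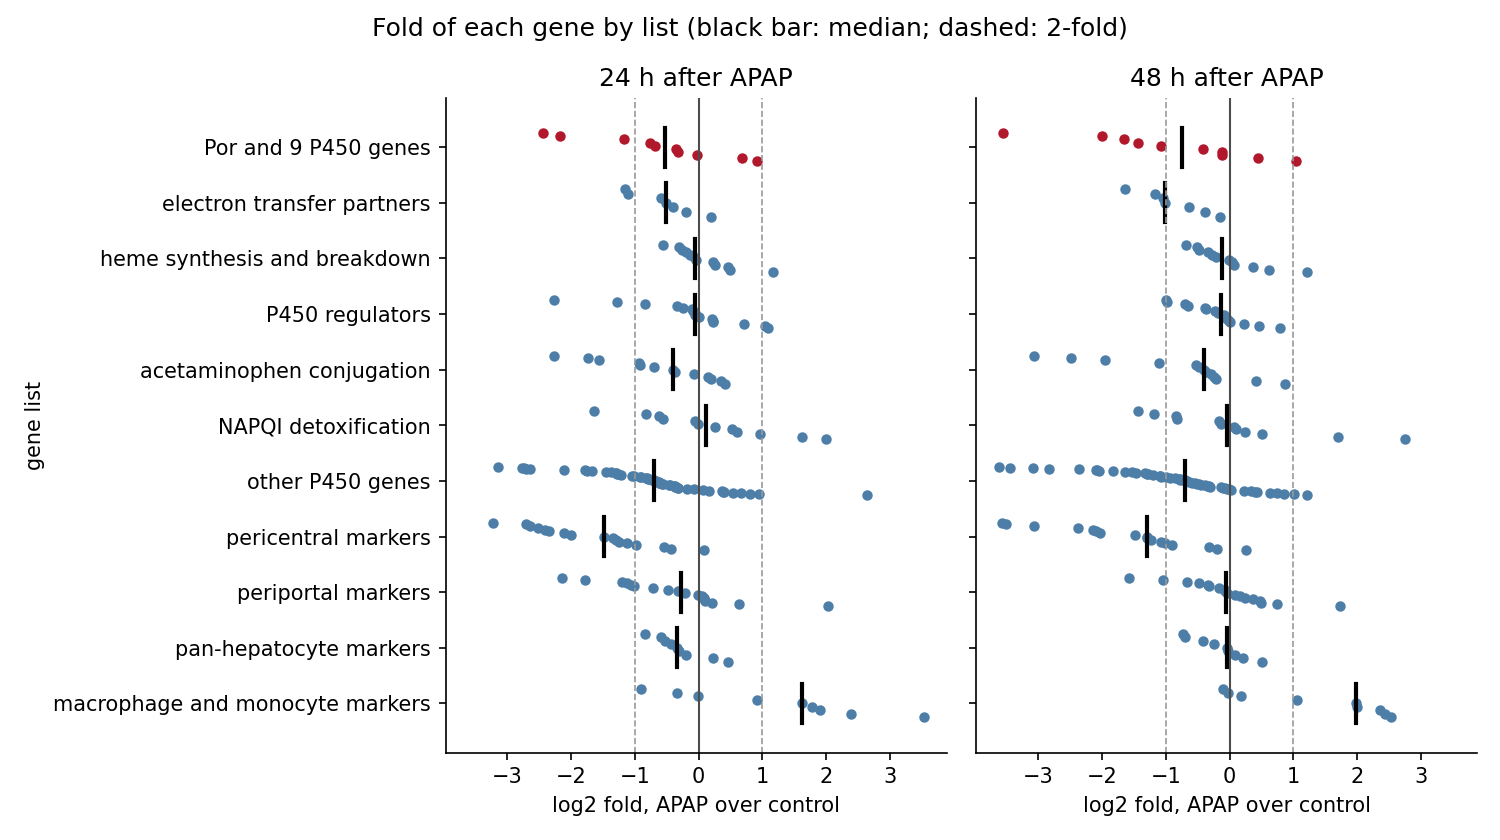
Log2 fold of APAP over control for each gene that passed the filter, by list, at 24 h (left) and 48 h (right), with 1 point per gene, a black bar for the median of the list and dashed lines at 2-fold. Of the lists drawn, pericentral markers have the lowest median (-1.48 and -1.29) and macrophage and monocyte markers the highest (1.61 and 1.98).

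Most macrophage and monocyte markers were higher in the same APAP pools. Of 9 macrophage and monocyte markers that passed the filter, 5 rose 2-fold or more at 24 h and 6 at 48 h (Lyz2, Marco, Cd14, Ccr2, Ly6c2 and, at 48 h, Cd68). The summed level of the list was 138 to 139 RPM in the vehicle pools and 234 and 370 RPM after APAP. Vehicle counts of Ccr2 (3 and 6 reads), Ly6c2 (3 and 5) and Cd14 (5 and 16) were near the floor of 3 reads, so their folds are uncertain. Clec4f (-0.91 and -0.02), Adgre1 (-0.33 and 0.18) and Csf1r (-0.01 and -0.10) were short of 2-fold. The neutrophil markers S100a8 and S100a9 were higher at both times, from few reads in the vehicle pools (5 and 10 for S100a8, 6 and 1 for S100a9). The summed level of the list was 2.88 and 3.47 RPM in the vehicle pools and 42.3 and 32.6 RPM after APAP, Camp being at 0 in 2 libraries and Cxcr2 in 1. Of 7 stellate cell and fibroblast markers, 1 rose 2-fold or more at 24 h and 4 at 48 h (Acta2, Col1a1, Col3a1 and Des), from 88.1 and 92.6 RPM in the vehicle pools to 126 and 226 RPM after APAP. Of 7 endothelial markers Lyve1 alone was past 2-fold, higher at both times, with list medians of -0.08 and -0.01 (130 to 140 RPM against 162 to 178 RPM for the list). Sox9 at 24 h and Spp1 at 48 h were higher among the cholangiocyte markers, of which 2 of 5 passed the filter (25.9 to 32.5 RPM against 66.2 to 81.9 RPM). No lymphocyte marker passed the filter, with 1.23 to 2.88 RPM for the list and 5 of 6 genes at 0 in at least 1 library. The part of these cells in the members' results was not tested.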

How the data were processed

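Hepatic RNA of 4 groups was measured as 1 MACE library per group, assigned by GEO's labels. The authors eliminated duplicate reads by molecular identifiers, trimmed with cutadapt, mapped on mm10, counted with HTSeq and deposited raw read counts per gene. Tool versions are not given in the sources used here. The deposited table also holds the authors' RPM values, log2 ratios, p-values and FDR, which were not used.

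Size factors came from DESeq2 1.42.0 or, as an alternative, TMM in edgeR 4.0.16 (R 4.3.3). With 1 library per group no test was made within a time. The quasi-likelihood test of edgeR, with time as a term, compared APAP with control over both times, with DESeq2 as an alternative, both added after the data had been seen. Folds were called at 2-fold or more, counts of 3 reads or fewer were set to 3, and a mean of at least 10 normalised reads was required. Intervals (Clopper-Pearson, exact conditional for ratios of folds) were computed with scipy 1.17.1 in Python 3.11.15 and cover counting error only. The steps were tested on simulated data. Transcript ends were compared by blastn 2.17.0.

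Members and lists were chosen with earlier results of these data known. All members were named, and from each list the genes past 2-fold at either time or with the most reads, plus the 5 genes nearest to Cyp2e1 and to Cyp2f2. A few genes that this rule takes are not reported here. The promoter motifs were chosen after the counts had been seen. Ugt1a1, Ugt1a6a, Trf, Mpo and Ly6g were not found under these symbols and were not analysed here. Other scalings, thresholds, filters and vehicle pools were tried.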

Additional observations from a re-analysis of the deposited data

Results flagged for a closer look

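The change of Cyp3a11 differed between the times. The fold of Cyp3a11 against control at 48 h was 0.464 times its fold at 24 h, past 2-fold. The 95% exact conditional interval of 0.387 to 0.556 covers counting error only and left out 1. Among the 10 members no other met both rules, but Cyp2f2 (0.561, 0.522 to 0.603) and Cyp2e1 (0.593, 0.561 to 0.626) missed only the 2-fold. The flag thus rests on the threshold, and the share of all genes that meet the rule was not computed. This ratio compares 4 libraries of pooled RNA and not mice, since each group had 1 pool.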

How the results depend on the processing

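At a threshold of 5-fold, 1 member was lower at 24 h and 1 at 48 h (Cyp3a11 each time), 0 were higher at 48 h and 0 differed between the times in either treatment. At 1.5-fold, 5 members were lower and 2 higher at 24 h, and 5 differed between the times after APAP. For folds and for APAP pools below both vehicle pools, the share of all genes was computed at the main settings only. Counts of members at other settings therefore stand without it. With library totals, totals without the 10 most abundant genes, or pan-hepatocyte genes (9 of the 10 listed were found) for scaling, 1 member (Cyp3a13) was higher at 24 h in place of 0. Where the bound of the interval nearest to 1 also had to reach 2-fold, 0 members were higher at 48 h and 0 differed between the vehicle pools, and with a mean of at least 50 normalised reads the latter was 0 too, since Cyp2b10 left. Relative to the summed pan-hepatocyte genes, 3 of the 9 members other than Cyp2f2 were below control at both times with intervals under 1, in place of 1 relative to Cyp2f2. The other counts stayed within 1.5 times, with 2 to 4 members lower at 24 h and 4 or 5 at 48 h. Cyp2f2 at 24 h left with library totals or pan-hepatocyte genes and Cyp2b10 at 48 h with library totals, with or without the 10 most abundant genes, or with another control pool or the sum of both, while Cyp3a11 and Cyp1a2 at both times, and Cyp2e1 and Cyp2f2 at 48 h, stayed past 2-fold under every scaling and control pool. The fit of APAP against control over both times, in which the pools are matched by time, was added after seeing the data. It had 4 members lower and 2 higher, also under the 4 other scalings. Under those scalings 3.62% to 5.65% of all genes were lower and 3.19% to 9.39% higher. With time left out, 4 members were lower, beside 4.28% of all genes, and 1 was higher, beside 2.15%. With DESeq2, 4 were lower, beside 2.96% of the 10469 genes with an adjusted p, and 1 was higher, beside 1.17%. Each of the 4 pools was also left out in turn, with time left out. A lone pool was then assumed to vary like the pair of the other treatment. Log2 folds ran from -3.70 to -2.31 for Cyp3a11 and from -2.24 to -1.59 for Cyp1a2. They ran from -1.94 to -1.24 for Cyp2f2, from -1.41 to -0.71 for Cyp2e1, from 0.86 to 1.08 for Cyp3a13 and from 0.36 to 0.77 for Por. The 4 scalings of the difference between times were added after seeing the data and left 1 member in each. No fold of a member past 2-fold changed sign. Depth limits Cyp2b10, with 25 to 55 reads, and 1 pool per group limits every comparison.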

Other observations

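Cyp4a10 and Cyp4a14, fatty acid hydroxylases driven by the receptor PPARα and induced by fasting, differed between the vehicle-treated pools more than any member did. Cyp4a10 had 1968 reads in the vehicle pool at 24 h and 731 in the vehicle pool at 48 h, and 3806 and 485 after APAP. Cyp4a14 had 2022 and 298 reads in the vehicle pools and 3489 and 689 after APAP. Both were higher at 24 h than at 48 h in either treatment, with log2 folds of 48 h against 24 h of -1.51 and -2.85 in the vehicle pools. Their folds against control therefore depend on which vehicle pool is used.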
